A study of Mus musculus with 6 samples.

Results

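Norrin, Frizzled-4 and the Wnt/beta-catenin pathway were described here through 9 genes, found by their symbols among the 54532 genes of the deposited expression table. They were the ligand gene Ndp, the receptor genes Fzd4, Lrp5, Lrp6 and Tspan12, the transducer gene Ctnnb1, the transcription factor gene Lef1, and the pathway targets and inhibitors Axin2 and Apcdd1. RNA was sequenced from retinas of mouse pups with oxygen-induced retinopathy. The antagomir group received 1 nmol of a miR-381-3p antagomir, an antisense oligonucleotide against this microRNA, in the vitreous on postnatal day 12, and the control group received 1 nmol of a negative control antagomir on the same day. Pups of both groups entered 75% ± 2% oxygen on postnatal day 7 and their retinas were taken on postnatal day 17, with 3 libraries per group. The day on which the pups left oxygen is not reported here. The sources used here give neither strain nor sex, and no group without oxygen or without injection was analysed here. Whether each library is a separate animal is not stated, so the spread between libraries, against which limma sets group differences, may in part be technical. The antagomir columns of the deposited table carry only the letter X and were assigned because no other group remains, and all directions rest on this.

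Norrin is a secreted protein that binds Frizzled-4 although it is unrelated to Wnt proteins. In the retina it is made mainly by Müller glia and acts on endothelial cells, where Frizzled-4 signals together with the co-receptors Lrp5 or Lrp6 and with Tspan12, a tetraspanin that strengthens the Norrin response. The signal stabilises beta-catenin, the product of Ctnnb1, which enters the nucleus and activates genes with Lef1 and Tcf factors. Mice and people who lack parts of this receptor complex fail to complete the deep retinal vessels and the blood-retina barrier, and in the oxygen model the pathway takes part in vessel regrowth.

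The microRNA that the antagomir is directed against is shown first, because 3 of the members carry a match to its full seed in their 3′ UTR. Whether the antagomir blocked miR-381-3p in these retinas was not measured here. The mature sequence of this microRNA (RefSeq, GRCm38.p6, chromosome 12, 109726870 to 109726891, plus strand) is printed with the seed, bases 2 to 8, in capitals. The target matches are printed as mRNA strand DNA with the paired bases in capitals, 30 bases each.
miR-381-3p: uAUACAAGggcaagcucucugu
Fzd4 match: aggttgctctcCTTGTATttcatgcctgtc
Lrp6 match: tgtataaatacCTTGTATaacccccccccc
Lef1 match: tttttattttcCTTGTATatttttgctagc

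In GRCm38 the Fzd4 match lies on chromosome 7 at 89409951 to 89409957 (plus strand), 1591 bases into a 3′ UTR of 4774 bases. The Lrp6 match lies on chromosome 6 at 134446577 to 134446583 (minus strand), 101 bases before the end of a 3′ UTR of 4310 bases. The Lef1 match lies on chromosome 3 at 131223694 to 131223700 (plus strand) in a 3′ UTR of 1287 bases. In the Lrp6 and Lef1 matches an A follows the 7 paired bases, which makes them 8-base sites. Lrp6 also held a match to bases 2 to 7 followed by an A, at positions 216 to 221 of its 3′ UTR. Matches to bases 2 to 7 alone, of 6 bases, were also present in Fzd4, Lrp5, Lrp6 and Lef1. At least these 6 bases were matched in 43.0% of tested genes with an annotated 3′ UTR. The longest annotated 3′ UTRs of Ndp, Lrp5, Tspan12, Ctnnb1 and Axin2 held no 7-base match. Apcdd1 is not reported because its deposited coordinates differ from the annotation. Of 13192 tested genes with an annotated 3′ UTR, 13.3% held the 7-base match to bases 2 to 8. Long 3′ UTRs hold it more often, with 31.1% of tested genes within 20% of the length of the Fzd4 3′ UTR and 27.4% of those within 20% of Lrp6, against 10.4% of those within 20% of the shorter Lef1 3′ UTR. For the members without a match the like-length share was 47.9% for Lrp5, 14.4% for Ctnnb1, 11.2% for Axin2, 10.2% for Tspan12 and 7.83% for Ndp. A match is a description of the letters, and binding was not measured.

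The libraries held 13727596 to 16502352 reads in genes. The summed level of 10 Müller glia markers was 779 to 854 FPKM in antagomir libraries and 825 to 1030 in controls, and the endothelial genes Pecam1 and Cdh5 were detected in each library. Antagomir replicate 1 and control replicates 2 and 3 held lens transcripts, with 693 to 1331 FPKM summed over 18 lens genes against 5.44 to 18.8 in the other 3 libraries. The summed level of 12 endothelial markers was 28.4 to 42.4 FPKM in antagomir libraries and 26.4 to 45.3 in controls. Of the 10 marker lists examined, only the pericyte and red blood cell lists had summed levels that did not overlap between groups. The 9 pericyte and smooth muscle markers were at 20.7 to 28.4 FPKM in antagomir libraries and 28.8 to 43.0 in controls. The 5 red blood cell genes were at 21.4 to 61.2 in antagomir libraries and 66.4 to 220.1 in controls. Among single tested genes, 12% had no overlap, and 5 of the 9 pericyte markers reached a mean of 0.5 FPKM. No gene of these lists was at 0 in every library. Xist, which is expressed from the inactive X chromosome, was at 224 FPKM in antagomir replicate 1 and 234 and 248 in control replicates 1 and 3, and at most 0.0574 in the other libraries. In whole retina, fewer cells of a type and less RNA per cell cannot be told apart.

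No member passed the test between antagomir and control retinas. The test was limma on log2(FPKM + 1) with p adjusted over all 17453 genes that reached a mean of 0.5 FPKM, and 8 of the 9 members reached it. Fold changes are on this log2(FPKM + 1) scale, antagomir over control, and understate changes of low genes. Intervals given as ratios are ratios of FPKM + 1. At an adjusted p of 0.05, 0 of 8 members and 0% of all tested genes passed by limma. At an unadjusted p under 0.05 there were 0 members, against 6.20% of all genes. Voom on rebuilt reads passed 1 gene and 0 members. Adjusted p by limma lay between 0.818 and 0.970 for the members, and over all 22 alternative settings none fell below 0.689. The estimate was above 0 for 2 of the 8 members and below 0 for 6, and their median was -0.037 (0.0013 over all tested genes). The 3 antagomir libraries stood apart from the 3 controls for 1 of the 8 tested members, Fzd4. That share of 12.5% is close to the 12% of all tested genes whose groups did not overlap (5.87% lower and 6.16% higher in antagomir).

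**Figure D1:**
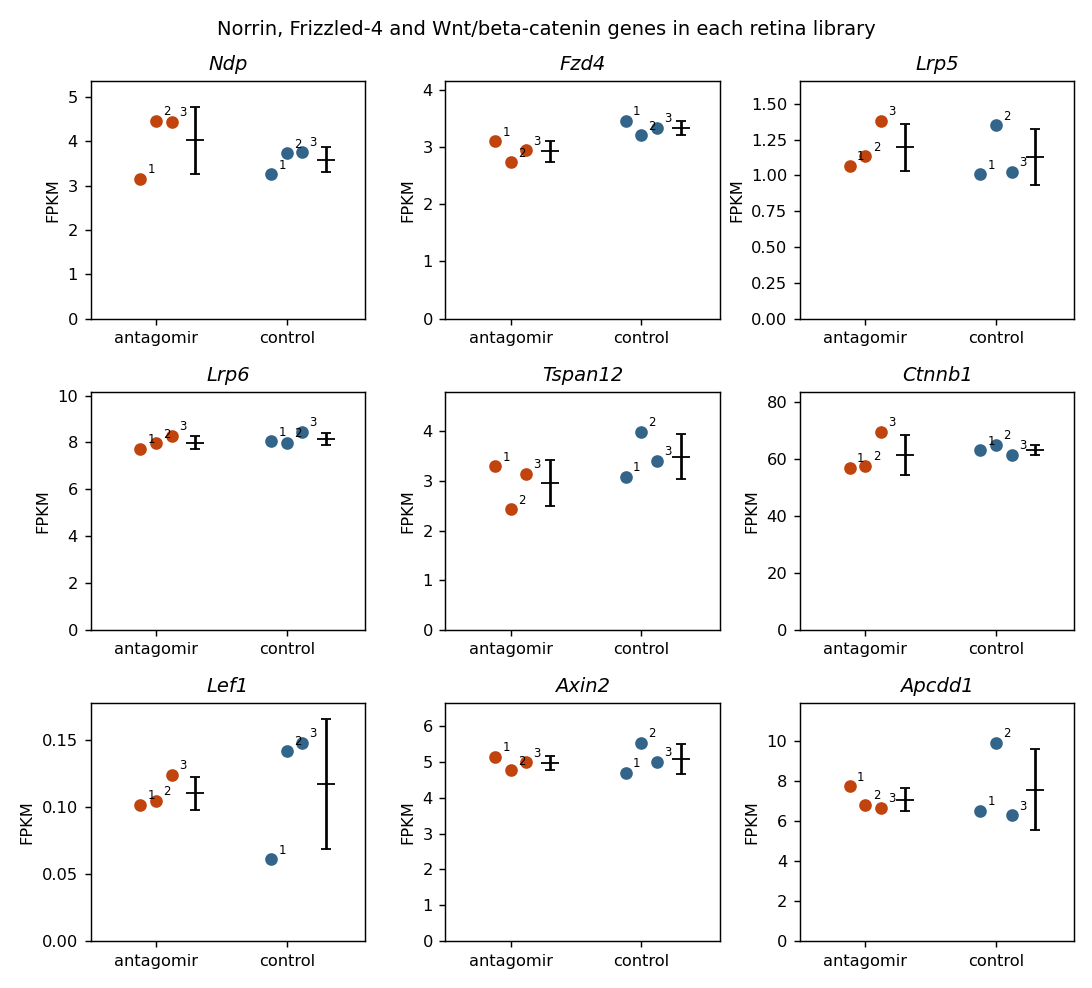
FPKM of the 9 members in each library, with antagomir points left of control points in each panel, library numbers beside the points, and mean ± SD of 3 libraries as black bars. Fzd4 is the 1 panel without overlap, with antagomir libraries at 2.73 to 3.10 FPKM and controls at 3.20 to 3.46, and Ctnnb1 is the highest gene at 56.9 to 69.4 FPKM.

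Among the members, transcript levels per length spanned from Ctnnb1 at 62.2 FPKM to Lef1 at 0.114, as means of 6 libraries. Lrp6 (8.08) and Apcdd1 (7.31) came next and overlapped over the libraries. Axin2 (5.03) was below both in every library. Ndp (3.80), Tspan12 (3.23) and Fzd4 (3.13) followed, and neighbours in this run overlapped. Lrp5 (1.16) was below Fzd4 and above Lef1 in all 6 libraries.

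Ndp encodes Norrin and lies on the X chromosome (ENSMUSG00000040138, 16885521 to 16911774, minus strand, GRCm38). It was at 3.16, 4.47 and 4.44 FPKM in antagomir replicates 1 to 3 and at 3.26, 3.73 and 3.77 in control replicates 1 to 3. Antagomir replicates 2 and 3 were above every control, and antagomir replicate 1 was the lowest of the 6. The means were 4.02 ± 0.7495 FPKM in antagomir retinas and 3.59 ± 0.284 in controls (SD, n = 3 each). Its log2 fold change, 0.12 (SE 0.13), did not pass (adjusted p = 0.901 by limma), with a 95% interval of 0.882 to 1.34 as a ratio. The 3 libraries with low Xist, antagomir replicates 2 and 3 and control replicate 2, held 4.47, 4.44 and 3.73 FPKM of Ndp, and those with high Xist 3.16, 3.26 and 3.77. With a term for high or low Xist, added after seeing the data, the log2 fold change was 0.044 (SE 0.11). It was 0.25 without antagomir replicate 1 (unadjusted p = 0.0396, adjusted p = 0.782 by limma). Leaving out antagomir replicate 2 or 3 gave 0.054 or 0.058, and leaving out control replicate 1 gave 0.069. Without the 3 libraries with lens transcripts it was 0.36 (SE 0.14, adjusted p = 0.977 by limma), from 2 antagomir libraries and 1 control. That fit takes the spread of the lone control to be that of the others. The part of Xist status and of lens transcripts in the Ndp difference was not tested further.

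Fzd4 encodes the Norrin receptor (ENSMUSG00000049791, chromosome 7, 89404355 to 89413134, plus strand). It was at 3.10, 2.73 and 2.94 FPKM in antagomir replicates 1 to 3 and at 3.46, 3.20 and 3.34 in control replicates 1 to 3. Each antagomir library was below each control, and the nearest values were 3.10 and 3.20. The means were 2.93 ± 0.184 FPKM in antagomir retinas and 3.33 ± 0.129 in controls (SD, n = 3 each), a ratio of mean FPKM of 0.878. Its log2 fold change, -0.14 (SE 0.080), did not pass (adjusted p = 0.818 by limma), and the 95% interval of this estimate ran from 0.793 to 1.03 as a ratio of FPKM + 1. Voom on rebuilt reads, which adds no pseudocount of 1 FPKM, gave -0.19 (adjusted p = 0.799). The spread within each group was close to what counting gives, slightly above it in antagomir and below it in control libraries. The coefficient of variation was 6.28% in antagomir and 3.88% in control libraries, where counting error alone gives 5.69% in antagomir and 5.52% in control libraries for the 299 to 346 reads of this gene. The difference kept its sign under all alternatives, from -0.22, when the libraries that held lens transcripts were dropped, to -0.11, when antagomir replicate 2 was. With the endothelial marker score as a term it was -0.15 (SE 0.080). Summed pericyte and red blood cell markers, picked out of 10 marker lists, were also lower in antagomir libraries without overlap. Their part in the Fzd4 difference was not tested. Fzd4 is also 1 of the 3 members with a seed match printed above, and a link between match and level was not tested. Of the other two, Lrp6 had an estimate of -0.026 and Lef1 was not tested.

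**Figure D2:**
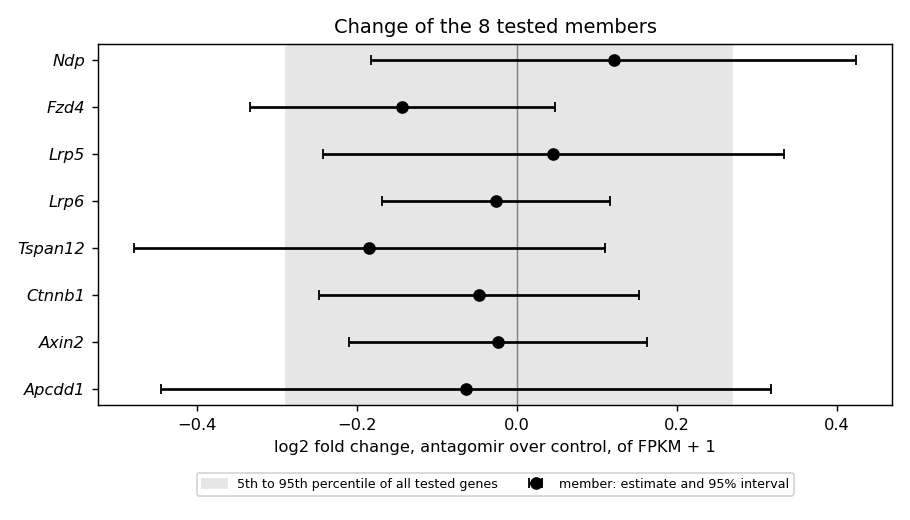
Log2 fold change of FPKM + 1, antagomir over control, for the 8 tested members with 95% intervals from the limma fit, and in grey the range from the 5th to the 95th percentile of all 17453 tested genes (-0.29 to 0.27). Every interval spans 0, and the estimates run from -0.18 for Tspan12 to 0.12 for Ndp.

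Tspan12, the tetraspanin of the receptor complex (ENSMUSG00000029669, chromosome 6, 21771395 to 21852515, minus strand), was at 3.30, 2.43 and 3.15 FPKM in antagomir replicates 1 to 3. Control replicates 1 to 3 held 3.09, 3.99 and 3.41 FPKM. The antagomir values were all below the control mean, but control replicate 1 was below antagomir replicates 1 and 3. With 2.96 ± 0.465 FPKM in antagomir retinas and 3.50 ± 0.461 in controls (SD, n = 3 each), Tspan12 differed by -0.18 on the log2 scale (SE 0.12, adjusted p = 0.852 by limma). Its 95% interval, 0.717 to 1.08 as a ratio, reached the lowest ratio among the members. Leaving out antagomir replicate 2 gave -0.084 and leaving out control replicate 2 gave -0.11, the libraries with its lowest and highest level.

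Lrp6 and Lrp5 encode the co-receptors, of which Lrp6 was the more abundant transcript. Lrp6 (ENSMUSG00000030201, chromosome 6, 134446476 to 134566965, minus strand) was at 7.73, 7.98 and 8.28 FPKM in antagomir replicates 1 to 3 and at 8.04, 7.98 and 8.46 in control replicates 1 to 3. It was the steadiest member, and its highest library was 1.09 times its lowest. Its log2 fold change was -0.026 (SE 0.060, adjusted p = 0.954 by limma), with a 95% interval of 0.889 to 1.08 as a ratio. Leaving out antagomir replicate 1 or 3 gave -0.0046 or -0.049, leaving out control replicate 2 or 3 gave -0.040 or -0.0032, all smaller in size than their SE. Lrp5 (ENSMUSG00000024913, chromosome 19, 3584828 to 3686564, minus strand) was at 1.07, 1.14 and 1.38 FPKM in antagomir replicates 1 to 3 and at 1.01, 1.35 and 1.02 in control replicates 1 to 3. In Lrp5 both groups held 1 library above the rest, antagomir replicate 3 and control replicate 2, which also had the highest summed endothelial markers. Its log2 fold change was 0.046 (SE 0.12, adjusted p = 0.962 by limma), and turned to -0.015 without antagomir replicate 3. Leaving out control replicate 1, 2 or 3 gave 0.0058, 0.12 or 0.012, and leaving out antagomir replicate 1 gave 0.088.

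Ctnnb1, the gene of beta-catenin (ENSMUSG00000006932, chromosome 9, 120929216 to 120960507, plus strand), was at 56.9, 57.5 and 69.4 FPKM in antagomir replicates 1 to 3. Control replicates 1 to 3 held 62.9, 64.8 and 61.4 FPKM, inside the antagomir range. The antagomir coefficient of variation was 11.6% and the control one 2.72%, where counting gives 1.41% in antagomir and 1.44% in control libraries. Its log2 fold change was -0.047 (SE 0.084, adjusted p = 0.942 by limma), with a 95% interval of 0.843 to 1.11 as a ratio. Antagomir replicate 3, the highest library, moved this value most. Without it the Ctnnb1 estimate was -0.14 (unadjusted p = 0.0392, adjusted p = 0.717 by limma), and without antagomir replicate 1 it was 0.0027. Without antagomir replicate 2 it was -0.0049, and without control replicate 2 it was -0.027. Beta-catenin is regulated mainly by the stability of its protein, which was not measured. Ctnnb1 overlaps Ulk4 on the opposite strand (mean 2.01 FPKM), and no source used here says whether counting used strand.

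Lef1, a transcription factor gene of the pathway and itself a common target (ENSMUSG00000027985, chromosome 3, 131110471 to 131224356, plus strand), was close to the limit of detection. It had 13, 15 and 18 reads in antagomir replicates 1 to 3 and 8, 19 and 18 in control replicates 1 to 3, or 0.102 to 0.124 FPKM in antagomir libraries and 0.0612 to 0.148 in controls. The antagomir values lie inside the control range. It was left out of the test by its low level, and with no filter its log2 fold change was -0.0081 (SE 0.047, adjusted p = 0.982 by limma). Its 91 reads over the 6 libraries set the precision: counting error alone gives a coefficient of variation of 25.5% in antagomir and 25.8% in control libraries, so moderate differences were not detectable at this depth.

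Axin2, a negative feedback gene that is widely used as a readout of beta-catenin signalling (ENSMUSG00000000142, chromosome 11, 108920349 to 108950783, plus strand), was at 5.15, 4.78 and 4.999 FPKM in antagomir replicates 1 to 3. In control replicates 1 to 3 it was at 4.70, 5.53 and 5.003 FPKM. The antagomir range lies inside the control range. Means were 4.97 ± 0.186 FPKM in antagomir retinas and 5.08 ± 0.422 in controls (SD, n = 3 each), with a log2 fold change of -0.023 (SE 0.079, adjusted p = 0.970 by limma). The 95% interval, 0.865 to 1.12 as a ratio, is among the narrower ones. The sign turned without antagomir replicate 2 (0.00071) or control replicate 2 (0.030). Leaving out control replicate 1 gave -0.069, and leaving out antagomir replicate 1 gave -0.044.

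Apcdd1, a membrane inhibitor of Wnt signalling that is also induced by it (ENSMUSG00000071847, chromosome 18, 62922327 to 62953195, plus strand), was at 7.74, 6.81 and 6.65 FPKM in antagomir replicates 1 to 3. Control replicates 1 to 3 held 6.51, 9.90 and 6.28 FPKM. Control replicate 2 stood above the other 5 libraries. Its log2 fold change came to -0.063 (SE 0.16, adjusted p = 0.960 by limma), or 0.12 (SE 0.087, adjusted p = 0.823 by limma) without that library. Leaving out antagomir replicate 1, 2 or 3 gave -0.12, -0.041 or -0.026, and leaving out control replicate 1 or 3 gave -0.15 or -0.17. Control replicate 2 also had the highest Tspan12 and Axin2 levels, the highest lens sum (1331 FPKM) and the highest summed endothelial (45.3), pericyte (43.0) and Müller glia (1030 FPKM) markers. The part of these cell types in the Apcdd1 level was not tested.

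**Figure D3:**
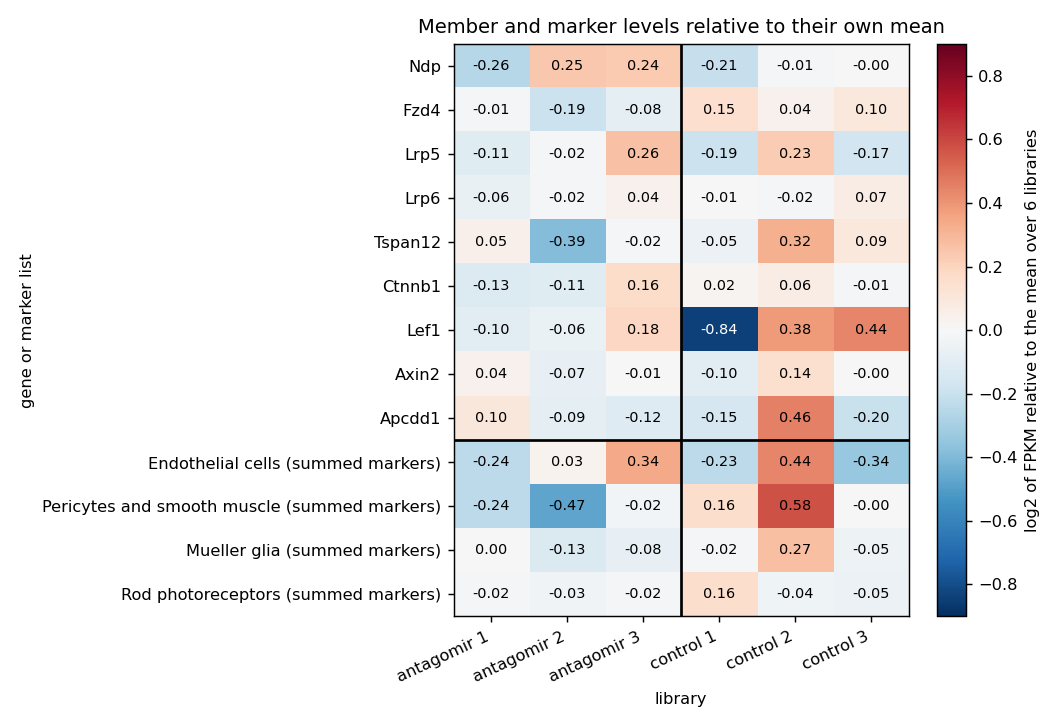
Level of each member (above the line) and the summed level of 4 marker lists (below it) in each library, as log2 of FPKM relative to the mean of the 6 log2 values, with antagomir libraries left of controls. Control replicate 2 is high for Apcdd1 (0.46), Tspan12 (0.32) and the endothelial (0.44) and pericyte (0.58) sums, while Lrp6 stays within -0.064 to 0.067 in all libraries. Lef1 is at 0.38 in control replicate 2 and 0.44 in control replicate 3, from 19 and 18 reads.

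Ratios within a library do not depend on the library scaling, and none of the 6 computed passed a test between groups. All p-values are from exact two-sided permutation tests, which cannot go below 0.1 with 3 against 3, adjusted over the 6 ratios. Lrp5 transcript was 0.138, 0.142 and 0.167 of Lrp6 in antagomir replicates 1 to 3 and 0.125, 0.169 and 0.121 in control replicates 1 to 3 (exact permutation p = 0.6, adjusted 0.9). The Ndp to Fzd4 ratio was 1.02, 1.63 and 1.51 in antagomir replicates 1 to 3 and 0.942, 1.17 and 1.13 in control replicates 1 to 3. Its log2 difference was 0.34, with exact permutation p = 0.3 and adjusted p = 0.8, and antagomir replicate 1 lay inside the control range. Leaving that library out gave 0.55, and leaving out antagomir replicate 2 gave 0.21. Tspan12 and Fzd4 transcripts were about equal, with a ratio of 1.01 ± 0.103 in antagomir and 1.05 ± 0.180 in control libraries (SD, n = 3 each, exact permutation p = 0.9). The ratio of Axin2 to Axin1, its constitutive paralog, was 0.488 ± 0.0398 in antagomir and 0.523 ± 0.0364 in control libraries (SD, n = 3 each, exact permutation p = 0.4, adjusted 0.8).

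Within the receptor, ligand and factor families, Fzd4 and Ndp stood at different ranks. Fzd4 ranked 4th of the 10 Frizzled genes, with 10.5% ± 0.617 of the summed Frizzled FPKM in antagomir and 11.2% ± 1.15 in control libraries (SD, n = 3 each, exact permutation p = 0.4, adjusted 0.8). Fzd10 (6.34 ± 0.165 FPKM in antagomir, 7.06 ± 1.000 in control), Fzd5 (6.31 ± 0.258 in antagomir, 6.24 ± 0.158 in control) and Fzd3 (3.48 ± 0.0460 in antagomir, 3.80 ± 0.147 in control) were above it. Ndp had a higher mean level than any of the 19 Wnt genes. The nearest was Wnt2b at 2.92 ± 0.474 FPKM in antagomir and 3.30 ± 0.503 in control libraries, whose range over the 6 libraries overlapped that of Ndp. Wnt5a followed at 1.71 ± 0.329 FPKM in antagomir and 1.85 ± 0.0936 in control libraries. The Wnt genes Wnt7a and Wnt7b, whose products use a related receptor complex in brain vessels, were at a mean of 0.0136 and 0.147 FPKM. Lef1 was the lowest of 4 Tcf and Lef genes, with 3.99% ± 0.516 of their summed FPKM in antagomir and 4.53% ± 1.87 in control libraries (exact permutation p = 0.9), below Tcf7l1 (mean 1.06 FPKM), Tcf7 (1.05) and Tcf7l2 (0.461). Tspan12 ranked 16th of 19 tetraspanin genes, led by Cd81 (57.8 FPKM), Tspan3 (53.1) and Tspan7 (52.9). Lrp6 ranked 5th and Lrp5 7th of 9 genes of the LDL receptor family, led by the reelin receptor genes Vldlr (39.1) and Lrp8 (11.05) and by Lrp4 (8.49).

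**Figure D4:**
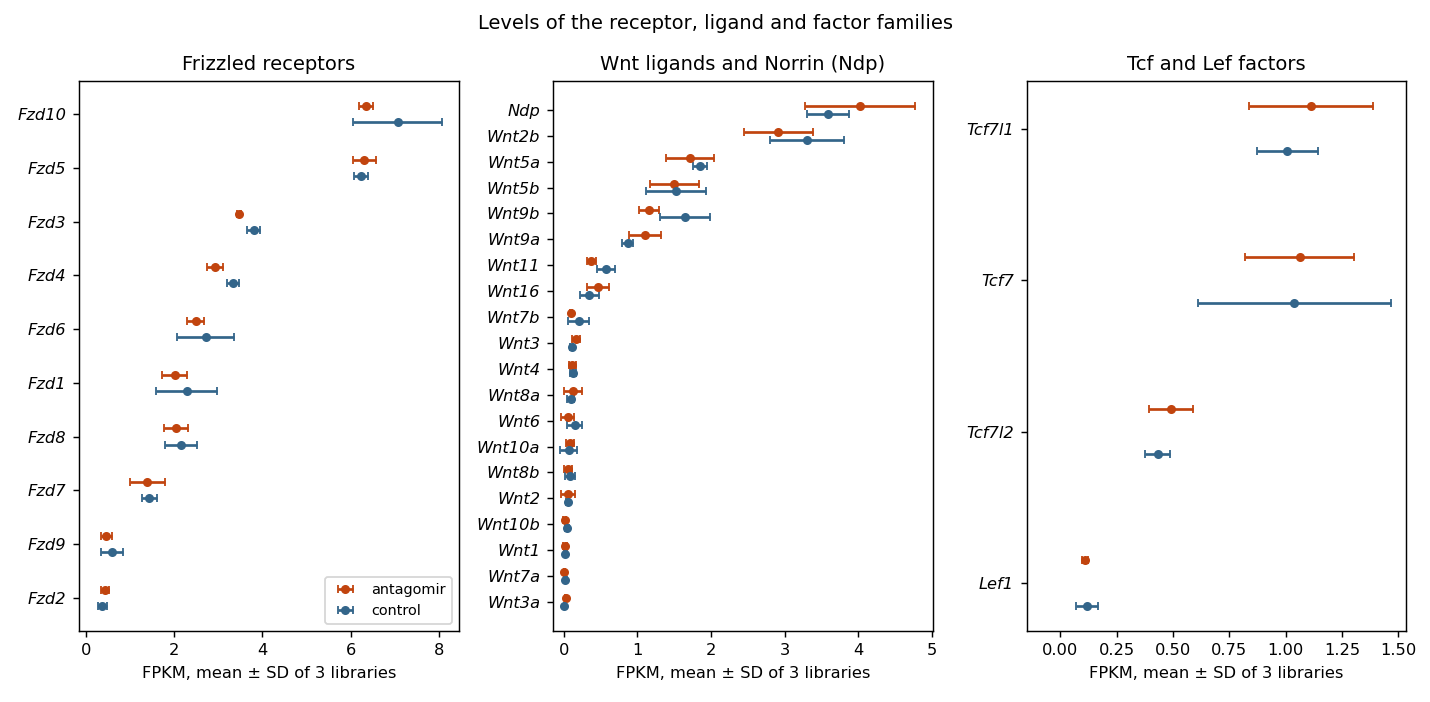
FPKM as mean ± SD of 3 libraries for the Frizzled genes, the Wnt genes with Ndp, and the Tcf and Lef genes, with antagomir above control for each gene. Ndp leads the ligands at 4.02 FPKM in antagomir and 3.59 in control, Fzd4 is 4th among Frizzled genes at 2.93 in antagomir and 3.33 in control, and Lef1 is lowest among the 4 factors at 0.110 in antagomir and 0.117 in control.

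Genes that Norrin controls in retinal endothelium were split between higher and lower estimates in whole retina. The part of endothelial cells in their levels was not measured. Slc2a1 and Spock2, given below, were far above the endothelial gene Pecam1 (mean 2.39 FPKM in antagomir and 2.17 in control libraries). Of 10 tested barrier genes, 5 were higher and 5 lower, 0 passed the test by limma, and the median log2 fold change was -0.018. The list holds both Cldn5, which Norrin signalling maintains, and Plvap, which it represses. These counts and this median therefore cannot show a direction of the pathway. Slc2a1, the glucose transporter gene GLUT1 and the most abundant of them, was at 61.3 ± 11.9 FPKM in antagomir and 59.7 ± 5.15 in control retinas (log2 fold change 0.025, SE 0.14, adjusted p = 0.981 by limma), and its sign turned (-0.12) without antagomir replicate 3, its highest library. Spock2, which encodes a matrix proteoglycan, had the smallest p of the list, at 43.9 ± 3.996 FPKM in antagomir and 52.4 ± 7.42 in control retinas without overlap (log2 fold change -0.25, SE 0.11, adjusted p = 0.802 by limma). Its estimate was -0.13 without control replicate 2, the highest library. Cldn5 (log2 fold change -0.24) and Plvap (0.20) were chosen after their values were seen, and do not stand for the list. Cldn5 is the tight junction gene that Norrin signalling maintains, and Plvap the leakage gene that it represses. Of the list genes not otherwise described, Slc38a5 (0.26), Foxf2 (0.28) and Mfsd2a (0.049) had estimates above 0. Abcb1a (-0.14), Tfrc (-0.067) and Sox18 (-0.062) had estimates below 0. Cldn5 was at 6.12, 7.12 and 11.9 FPKM in antagomir replicates 1 to 3 and at 6.79, 21.0 and 6.23 in control replicates 1 to 3 (adjusted p = 0.944 by limma). Control replicate 2 was its highest library, as for Apcdd1 and the endothelial markers. Plvap was at 3.22, 2.85 and 2.14 FPKM in antagomir replicates 1 to 3 and at 2.23, 2.68 and 1.82 in control replicates 1 to 3 (adjusted p = 0.862 by limma), with overlap of the groups.

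General Wnt target genes other than the members had estimates above 0 in 5 of 6 tested cases (8809 of 17453 over all genes), and 0 passed the test by limma. Their median log2 fold change was 0.12, and 0.029 with no filter on low values. Nkd1, an inhibitor of dishevelled, was the most abundant of them at 6.61, 3.42 and 4.83 FPKM in antagomir replicates 1 to 3 and 3.74, 4.10 and 4.03 in control replicates 1 to 3. Antagomir replicate 2 was the lowest library and antagomir replicate 1 the highest (log2 fold change 0.23, SE 0.19, adjusted p = 0.870 by limma). Leaving out antagomir replicate 1 gave 0.035 and leaving out antagomir replicate 2 gave 0.43. Ccnd1, the cyclin D1 gene, was at 4.02 ± 0.767 FPKM in antagomir and 3.43 ± 0.327 in control retinas (log2 fold change 0.17, SE 0.13, adjusted p = 0.857 by limma), and its estimate without antagomir replicate 3 was 0.052. The members Axin2 and Apcdd1 of the same list had estimates below 0, as given above.

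Across the 103 tested pathway genes other than the members, 50 had estimates above 0 and 53 below, with a median of -0.0096 on the log2 scale. By limma 0 passed the test, and 1 above and 1 below 0 had an unadjusted p under 0.05, a share under the 6.20% of all genes. The groups did not overlap for 6 of them, or 5.83%, a smaller share than the 12% of all tested genes. Frizzled genes other than Fzd4 were lower in 7 of 8 tested cases, with a median of -0.088 that turned to 0.0067 without control replicate 2, and Fzd3 was lower without overlap (log2 fold change -0.10, SE 0.072, adjusted p = 0.857 by limma). Of 5 tested Wnt genes 4 were lower. Wnt9b was at 1.15 ± 0.136 FPKM in antagomir and 1.65 ± 0.339 in control retinas with overlap (log2 fold change -0.29, SE 0.13, adjusted p = 0.802 by limma). Wnt9a, the 1 higher gene, was at 1.10 ± 0.213 FPKM in antagomir and 0.867 ± 0.0733 in control retinas without overlap (log2 fold change 0.17). Secreted and membrane inhibitors other than Apcdd1 were higher in 5 and lower in 4 of 9 cases. Dkk3, a Dickkopf relative that marks Müller glia, was the most abundant at 167 ± 17.8 FPKM in antagomir and 175 ± 28.3 in control retinas, and Kremen1, a Dickkopf receptor gene, was at 7.40 ± 1.46 in antagomir and 6.23 ± 0.544 in control retinas (adjusted p = 0.840 by limma).

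Of 17 genes of dishevelled and the destruction complex, which degrades beta-catenin, 8 were higher and 9 lower (median -0.013). The casein kinase gene Csnk1a1 was at 29.2 ± 1.41 FPKM in antagomir and 30.3 ± 1.23 in control retinas, and the tankyrase gene Tnks, whose product targets axin for degradation, at 11.9 ± 0.433 in antagomir and 13.0 ± 0.698 in control retinas without overlap (log2 fold change -0.11, SE 0.062, adjusted p = 0.818 by limma). Tcf and Lef factors and their co-factors were higher in 8 of 10 cases (median 0.058), led by Pygo2 at 13.3 ± 0.898 FPKM in antagomir and 12.04 ± 0.642 in control retinas (log2 fold change 0.13, SE 0.070, adjusted p = 0.817 by limma). Ligand secretion genes, agonists and co-receptors divided into 5 higher and 5 lower (median -0.00056). Among them Porcn, the Wnt acyltransferase gene, was at 19.0 ± 0.542 FPKM in antagomir and 18.6 ± 0.857 in control retinas, and the R-spondin receptor gene Lgr4 at 10.4 ± 0.660 in antagomir and 11.2 ± 0.683 in control retinas.

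The 2 of these 103 genes at an unadjusted p under 0.05, which 6.20% of all genes reached, were a tetraspanin and a cadherin. The tetraspanin gene Tspan15 was at 5.01 ± 0.454 FPKM in antagomir and 4.22 ± 0.174 in control retinas (log2 fold change 0.20, SE 0.083, unadjusted p = 0.0458, adjusted p = 0.801 by limma). The cadherin gene Cdh4 was at 6.07 ± 0.275 FPKM in antagomir and 7.04 ± 0.516 in control retinas (log2 fold change -0.18, SE 0.075, unadjusted p = 0.0458, adjusted p = 0.801 by limma). Tetraspanins other than Tspan12 were higher in 11 of 17 cases (median 0.038), LDL receptor family genes other than the members lower in 6 of 7 (median -0.073, and -0.0024 without antagomir replicate 2), and junction genes other than Ctnnb1 higher in 3 of 7 (median -0.0089). The most abundant junction gene was Ctnna1, of alpha-catenin, at 32.3 ± 1.94 FPKM in antagomir and 32.6 ± 3.47 in control retinas.

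**Figure D5:**
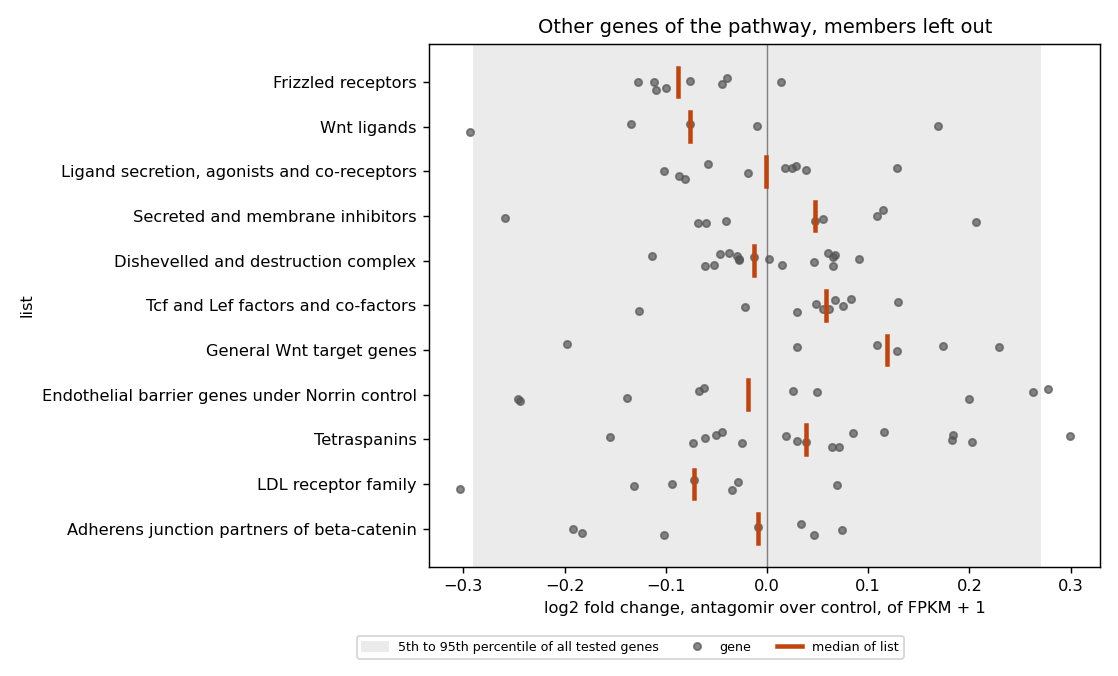
Log2 fold change of FPKM + 1, antagomir over control, for each tested gene of 11 pathway lists without the 9 members, with the list median as a red bar and the 5th to 95th percentile of all tested genes in grey. List medians run from -0.088 (Frizzled receptors) to 0.12 (general Wnt targets). The grey range is that of single genes and is no yardstick for a median, and a gene can stand in several lists.

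The gene whose level followed a member most closely over the 6 libraries was sought among 8798 genes with a mean of at least 5 FPKM. As the best of so many genes over 6 points, these likenesses are descriptions with no test. Ndp was closest to Plekha1 (Pearson's r 0.977, Spearman's coefficient 0.886), Ctnnb1 to Klf9 (0.9895 and 1), Lrp6 to Lta4h (0.988 and 0.943), Lrp5 to Ipo13 (0.9896 and 0.829), Lef1 to Rnf20 (0.9895 and 1) and Axin2 to Kctd2 (0.985 and 0.943), each with Pearson's r and then Spearman's coefficient. Apcdd1 was closest to Frmd5 (r 0.978) and Tspan12 to Rab11fip4 (r 0.978), and these rested on the extreme libraries, with r of 0.264 and 0.429 without the 2 libraries farthest from the median.

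Promoter windows from 250 bases before to 50 after the start were found in RefSeq (GRCm38.p6) for 6 of the 9 members, Ndp, Fzd4, Tspan12, Ctnnb1, Lef1 and Axin2. The Tcf and Lef motifs CTTTGAA and CTTTGAT, on either strand, were in 0 of these members' windows and in 8.65% of all 32851 windows. This says only that these letters are not in these windows.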

How the data were processed

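The authors deposited FPKM values (fragments per kilobase of listed gene length and scaled to a total per library) for 54532 genes, per the file headers. A SMARTER mRNA-Seq kit was used per the labels' protocols, and the submitters' processing notes name GRCm38 and mm10. Aligner, counter and strand use: not given in the sources used here. Control columns carry the control label. The other 3 columns, named X, were read as the antagomir group because no other group remains, and all directions rest on this. Each value was multiplied by gene length and divided by the smallest non-zero product of its library, taken as a single read. Of the results, 100% were whole numbers to within 0.01, so reads could be rebuilt.

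Genes with a mean of at least 0.5 FPKM entered a limma fit (version 3.58.1, R 4.3.3, eBayes with trend) on log2(FPKM + 1), two-sided and with no covariate. P-values were adjusted over all of these genes by Benjamini-Hochberg. The test was tried on simulated data first. Of 236 listed symbols, 235 were found. The members and lists were chosen with earlier results of these data known. Genes named from lists are the most abundant and the one with the smallest p of each. Some genes that these rules select are not reported here. 3′ UTRs are the longest per gene in GENCODE M21, which gives 8 of the 9 members the deposited coordinates. Alternatives were other pseudocounts, filters, scalings and models (statmod 1.5.0), voom on rebuilt reads, a replicate block, marker terms and leaving out libraries.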

Additional observations from a re-analysis of the deposited data

How the results depend on the processing

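No member and no other pathway gene passed an adjusted p of 0.05 in the main limma fit or in any of 22 alternatives. Over all 17453 genes the main fit called 0 (1082 at an unadjusted p under 0.05). Counts of genes called were 5 with eBayes without a trend, 2 with array weights, 1 by voom on rebuilt reads, 1 with the endothelial score as a term, and 0 to 2 when leaving out 1 library, with 0 in the other settings. The causes were not tested. Ndp, Fzd4 and Tspan12 kept their signs under all alternatives run. The sign turned without the 3 libraries with lens transcripts for Lrp6 (log2 fold change 0.014), Ctnnb1 (0.0055), Axin2 (0.047) and Apcdd1 (0.042). With the lens score as a term it turned for Axin2 (0.013) and Apcdd1 (0.025), with array weights for Apcdd1 (0.0078), and with the Xist term, added after seeing the data, for Lrp5 (-0.012). Leaving out 1 library gave ranges of -0.015 to 0.12 for Lrp5, -0.14 to 0.0027 for Ctnnb1, -0.069 to 0.030 for Axin2 and -0.17 to 0.12 for Apcdd1. For log2 ratios the ranges were -0.17 to 0.074 for Tspan12 over Fzd4, -0.41 to 0.20 for the Lef1 share and 0.21 to 0.55 for Ndp over Fzd4. Over all alternatives the median of every pathway list but 4 changed sign, the exceptions being Wnt ligands, Tcf and Lef factors, general Wnt targets and the LDL receptor family. Libraries with the same replicate number did not deviate together (correlation of their deviations -0.19, -0.10 and -0.14). Deviations from a mean of 3 libraries cannot exclude pairing, and the labels do not say that the numbers mark pairs. With the replicate block 0 genes and 0 members were called, and 856 genes had an unadjusted p under 0.05. Depth limits Lef1, at 8 to 19 reads per library, more than the other members.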
